A study of Mus musculus with 2 samples.

Results

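Chemokines are small secreted proteins that guide migrating cells, and chemokine receptors are the G protein-coupled receptors that read them. Their genes were taken here by symbol (Cxcl, Cxcr or Ccl followed by a number, and Ccr with a number only), which gave 54 of the 23284 gene symbols in the data. Of these 37 were ligands (13 of the CXC and 24 of the CC type) and 17 were receptors (7 CXC and 10 CC). The 54 symbols had 63 records, since Ccl19, Ccl21a, Ccl21b and Ccl27b are listed at several loci.

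The samples were 2 RNA sequencing libraries of total RNA, each from dissected medulloblastoma tissue of mice, a tumour of the cerebellum. The genotype CAG-CreER, Rosa26-SmoM2, Brg1+/+ is called WT below, and CAG-CreER, Rosa26-SmoM2, Brg1F/F is called Brg1KO. Both genotypes carried a tamoxifen-inducible Cre under the CAG promoter, which is active in most cell types, and SmoM2, an activated Smoothened that switches on Hedgehog signalling, and both received 10 tamoxifen injections. Brg1 is the ATPase of the BAF chromatin remodelling complex, encoded by Smarca4. The animals' ages, and whether a library came from 1 tumour or a pool, are not stated in the labels.

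In the developing cerebellum the meninges secrete Cxcl12, which acts on Cxcr4 on granule neuron precursors, keeps them in the outer layer where they divide and adds to their response to Hedgehog ligand. Cxcr7 (now Ackr3) binds the same ligand but does not signal through G proteins and clears it from the tissue. Most other members are inflammatory: microglia, macrophages, astrocytes and vessel cells make the ligands, and the receptors are on leukocytes that follow them. SmoM2-driven medulloblastoma arises from granule neuron precursors.

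With 1 library per genotype no difference below has a replicate check, an error or a p-value. "Higher" and "lower" compare these 2 libraries, which can differ by animal as well as by genotype. Levels are FPKM, fragment numbers divided by transcript length and library size, so genes can be compared per length. The log2 ratio is log2((Brg1KO FPKM + 1)/(WT FPKM + 1)), which makes ratios of low genes smaller than on the FPKM scale. A record counts as expressed if it reaches 1 FPKM in either library. A log2 ratio of 1 or more is called 2-fold higher, and one of -1 or less 2-fold lower.

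FPKM summed to 388032 over all records in the WT library and 343028 in the Brg1KO library. Smarca4, the targeted gene, had 14.05 FPKM in the WT and 3.765 FPKM in the Brg1KO library, a value that also covers exons outside the loxP-flanked part. Xist had 268.3 and 0.3686 FPKM, so the sex of the animals and the genotype cannot be told apart. Of 10 marker genes of granule precursors and Hedgehog-type tumours, all were expressed, and their summed level was 600.2 FPKM in the WT and 290.1 FPKM in the Brg1KO library.

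Some promoter sequences are shown first, because some of the inflammatory members described here hold the same short motif ahead of their start sites. They are from RefSeq (GRCm38.p6, the assembly of mm10), 5′ to 3′ on the gene's strand, and end at the base before the start site, which is position -1. Capitals mark matches to the kappa-B consensus, the binding motif of NF-kappa-B, or to the interferon-stimulated response element (GAAA, any 2 bases, GAAA), on either strand. Overlapping matches form 1 run of capitals.
Cxcl10, chr5:92348890-92349109, minus strand: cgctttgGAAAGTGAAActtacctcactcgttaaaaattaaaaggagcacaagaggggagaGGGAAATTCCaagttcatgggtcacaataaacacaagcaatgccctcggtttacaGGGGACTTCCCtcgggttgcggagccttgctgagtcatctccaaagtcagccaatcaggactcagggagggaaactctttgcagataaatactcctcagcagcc
Cxcl1, chr5:90891125-90891244, plus strand: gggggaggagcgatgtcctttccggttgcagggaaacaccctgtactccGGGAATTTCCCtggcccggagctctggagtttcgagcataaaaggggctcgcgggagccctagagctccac
Cxcl2, chr5:90903779-90903898, plus strand: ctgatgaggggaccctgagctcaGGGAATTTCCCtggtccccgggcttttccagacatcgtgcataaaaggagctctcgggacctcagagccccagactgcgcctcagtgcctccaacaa
Ccl9, chr11:83578637-83578756, minus strand: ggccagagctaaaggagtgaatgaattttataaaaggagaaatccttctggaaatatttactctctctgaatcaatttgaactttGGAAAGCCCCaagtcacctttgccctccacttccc
Ccr1, chr9:123968693-123968812, minus strand: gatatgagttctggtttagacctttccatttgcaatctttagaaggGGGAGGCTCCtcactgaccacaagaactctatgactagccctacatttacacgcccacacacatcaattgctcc
The Cxcl10 stretch holds the response element at positions -213 to -204, a kappa-B match at -159 to -150 and overlapping ones between -104 and -94. Cxcl1 and Cxcl2 carry the same 11-base run, which reads as kappa-B on both strands, at -71 to -61 and -97 to -87.

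RefSeq promoters were matched for 17 of the 25 expressed members, and the 250 bases ahead of every listed start site were searched. Members were counted by gene, for a match at any start site, while percentages are shares of all single promoter windows. The kappa-B consensus was in the promoters of 5 members, Ccl9, Ccr1, Cxcl1, Cxcl10 and Cxcl2, and in 7.25% of all 32851 promoter windows of this length. Cxcl2 and Ccr1 counted as expressed only through the Brg1KO library, and of the 14 matched members that reached 1 FPKM in the WT library 3 held it. The interferon element was in those of Ccl19, Cxcl10 and Cxcl14, against 2.98% of all windows. The gamma-activated site TTCNNNGAA was in that of Cxcl14 (7.02% of all windows), and the Gli motif GACCACCCA in none of the 17 (0.225% of all windows). A match describes the letters in this window and does not show binding.

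Of the 63 records 25, all of different genes, were expressed. Of these 25 members 15 (60.0%) were 2-fold higher in the Brg1KO library and 1, Cxcr4, was 2-fold lower. Over all 13279 expressed records 16.1% were higher and 8.67% lower. The median log2 ratio was 1.28 for the members and 0.09 for all expressed records. A count over records filtered on either library can favour genes that are high in 1 of them: Cxcl2, Ccr1 and Ccr2 passed only through the Brg1KO library. Among the 22 members that reached 1 FPKM in the WT library 13 were higher and 1 lower, beside 11.9% and 9.59% of the 12006 records so filtered. With both libraries scaled to an equal FPKM total, the median of all expressed records moved by 0.15 and 74.8% of their 2-fold differences were higher, where 65.0% were as deposited. On that scale 17 members were higher and 1 lower, beside 19.5% and 6.56% of all expressed records. Small RNA genes made up 14.1% of the FPKM total in the WT and 7.12% in the Brg1KO library. Scaling to an equal total passes that difference on to all genes.

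**Figure D1:**
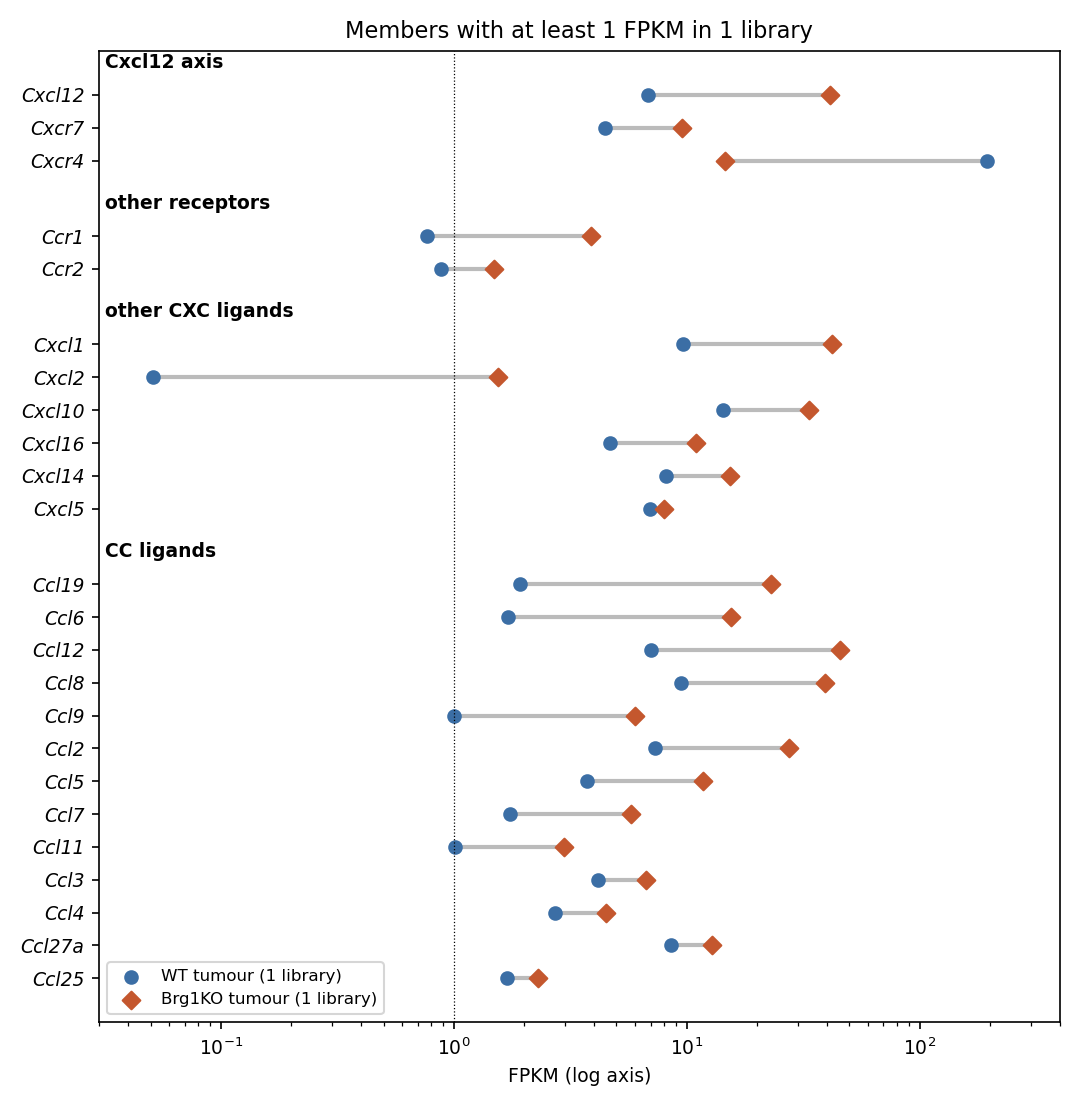
FPKM of 24 of the 25 expressed members in the WT tumour (circles) and the Brg1KO tumour (diamonds), 1 library each, on a log axis; the dotted line is at 1 FPKM. Cxcr4 is the 1 member to the left in the Brg1KO library, from 195.7 to 14.7 FPKM.

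The Cxcl12 axis held both the largest loss among the members and one of their larger gains. Cxcr4 (chr1:128588199-128592299), the signalling receptor, had 195.7 FPKM in the WT and 14.7 FPKM in the Brg1KO library. The Brg1KO level was 7.50% of the WT level (log2 ratio -3.65). It was the most abundant member in the WT library, place 275 among all 23746 records, and stood at place 4631 in the Brg1KO library. Its log2 ratio was exceeded in size by 34 of the expressed records that were lower. Among the granule precursor markers, the transcription factor Atoh1 had a log2 ratio of -2.58 (67.03 and 10.4 FPKM) and the Hedgehog target Gli1 one of -3.17 (89.2 and 9.03 FPKM). Of the 10 markers on that list 5 were 2-fold lower and 0 higher, beside 8.67% and 16.1% of all expressed records. Zic1 had 74.6 and 99.8 FPKM and Pax6 had 18.05 and 31.97 FPKM. In bulk tissue fewer cells of a type and less RNA per cell cannot be told apart, and the part of either in the Cxcr4 value was not tested.

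Cxcl12 (chr6:117168535-117181368), the ligand, had 6.85 FPKM in the WT and 41.2 FPKM in the Brg1KO library, 6.01 times the WT level (log2 ratio 2.43). The order of receptor and ligand differed between the libraries. Cxcr4 stood at 28.6 times the level of Cxcl12 in the WT library, and Cxcl12 at 2.81 times the level of Cxcr4 in the Brg1KO library. Cxcr7 (chr1:90204003-90216288), the scavenging receptor, had 4.44 and 9.59 FPKM, 2.16 times the WT level on the FPKM scale. Its log2 ratio of 0.96 stayed under 2-fold through the added 1 FPKM, and was 1.09 with 0.1 FPKM added. Cxcr4 had 44.0 times the level of Cxcr7 in the WT library and 1.53 times that level in the Brg1KO library.

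The stretches below show the promoters of this receptor and ligand, which moved in opposite directions. Capitals mark TATAAA on either strand.
Cxcr4, chr1:128592300-128592419, minus strand: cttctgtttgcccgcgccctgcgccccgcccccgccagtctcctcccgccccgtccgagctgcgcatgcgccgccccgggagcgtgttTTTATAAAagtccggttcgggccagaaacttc
Cxcl12, chr6:117168415-117168534, plus strand: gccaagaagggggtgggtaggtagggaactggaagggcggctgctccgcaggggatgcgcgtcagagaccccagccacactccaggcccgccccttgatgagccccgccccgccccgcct
The Cxcr4 promoter holds TATAAA at positions -30 to -25, overlapped by its reverse complement, and 12.4% of all promoter windows hold it on 1 strand or the other. Counted by gene, it was in the promoters of 6 of the 17 matched members, among them Ccl12, Ccl8, Ccl9 and Ccl25 and the receptor Cxcr7. The 250 bases ahead of Cxcl12 held none of the motifs searched.

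Cells that can make Cxcl12 were followed through their markers. Of 10 markers of pericytes, fibroblasts and meninges 4 were 2-fold higher in the Brg1KO library and 0 lower. Over all expressed records 16.1% were higher and 8.67% lower. The sum of the 10 markers went from 43.2 to 144.2 FPKM. The matrix gene Dcn had 18.7 and 71.6 FPKM and Vtn had 7.34 and 37.8 FPKM, while Lum had 7.63 and 5.48 FPKM. Of 8 expressed endothelial markers 2 were higher, a share near the 16.1% of all expressed records, with a sum of 26.3 and 47.03 FPKM over the whole list. No gene of either list was at 0. Vwf, Flt1 and Tek of the endothelial list were expressed only through the Brg1KO library, and Vwf is among the 2 higher. Col1a1, Foxc1 and Pdgfrb of the other list also passed only through that library. For these genes the filter fixed the direction. The part of these cells in the Cxcl12 value was not tested.

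Partners that act on the axis from outside the family were also followed. Of 8 genes for Cxcl12 processing or other partners of its receptors 6 were expressed. Of these 1 was higher and 1 lower, beside 16.1% and 8.67% of all expressed records, and the median log2 ratio was -0.06. Cd74, Hmgb1, Mmp14 and Mmp2 stayed within 2-fold. Sdc4, a heparan sulphate proteoglycan, had 2.88 and 38.1 FPKM (log2 ratio 3.33). Mif, a cytokine that also binds Cxcr4, had 454.8 and 195.1 FPKM (log2 ratio -1.22).

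**Figure D2:**
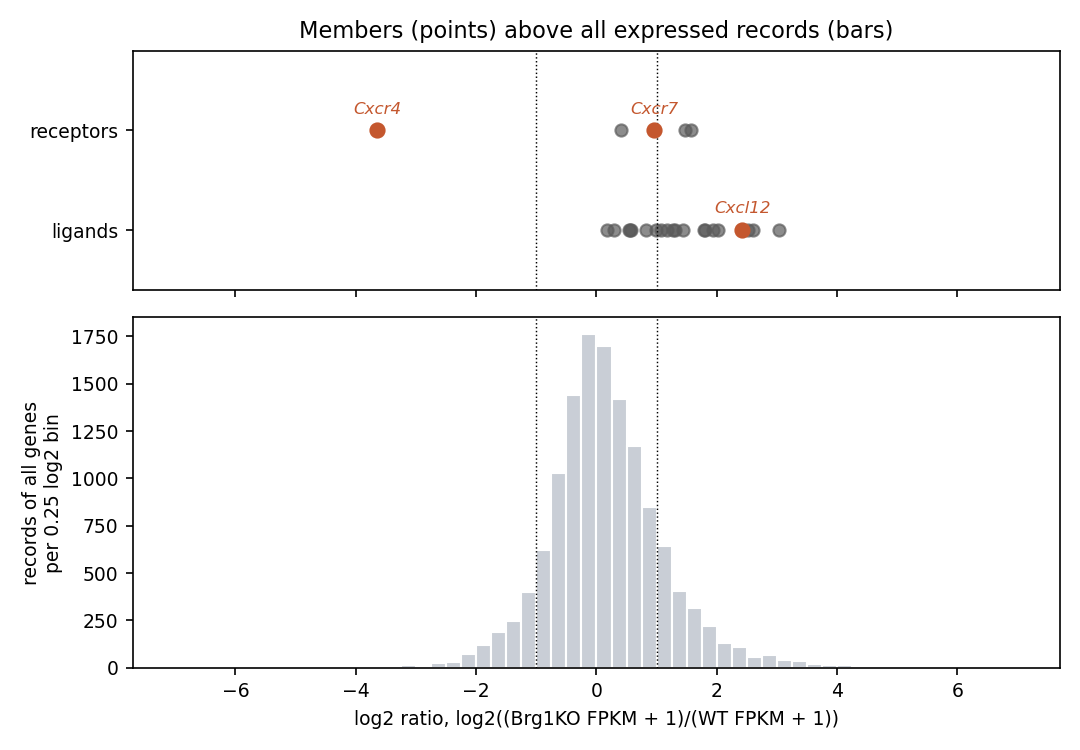
Log2 ratio of the expressed members (points, with the Cxcl12 axis in orange) above the same ratio for all 13279 expressed records (bars, number per bin of 0.25); dotted lines mark 2-fold. The 20 ligands lie from 0.17 to 3.03, and Cxcr4 lies apart at -3.65.

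Of the 22 expressed members outside the axis 14 were 2-fold higher and 0 lower, beside 16.1% and 8.67% of all expressed records. All 22 had a log2 ratio above 0, with a median of 1.29. For 3 of the 22, Cxcl2, Ccr1 and Ccr2, the filter fixed that sign, since they were expressed only through the Brg1KO library. The 19 ligands among them summed to 96.1 FPKM in the WT and 315.3 FPKM in the Brg1KO library, 3.28 times as much (1.71 as log2). The most abundant 5 in the Brg1KO library, Ccl12, Cxcl1, Ccl8, Cxcl10 and Ccl2, made up 59.7% of the sum there.

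A Ccl group of chromosome 11, with monocyte attractants among its 5 expressed genes, summed to 26.6 FPKM in the WT library. In the Brg1KO library it summed to 121.1 FPKM, the highest level of the gene clusters there. Ccl12, a ligand of the monocyte receptor Ccr2, had 7.05 FPKM in the WT and 45.4 FPKM in the Brg1KO library (log2 ratio 2.53). Ccl2, the main ligand of Ccr2, had 7.34 and 27.6 FPKM (log2 ratio 1.78). Ccl8, a further attractant of this group, had 9.50 and 39.3 FPKM (log2 ratio 1.94). All of these stood between 7 and 10 FPKM in the WT library and above 27 FPKM in the Brg1KO library. Ccl7, also a Ccr2 ligand, was lower in level, with 1.75 and 5.76 FPKM (log2 ratio 1.30). Ccl11, the eosinophil attractant eotaxin, had 1.01 and 2.97 FPKM (log2 ratio 0.98) and lay just under 2-fold. These genes and Ccl1 lie within chr11:82035577-82179812. Ccl1 was the 1 gene of that stretch under 1 FPKM, with 0.129 FPKM in the WT library and a listed 0 in the Brg1KO library.

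The second Ccl group of this chromosome, chr11:83525779-83664683, holds ligands that attract macrophages and T cells, among them those of Ccr1. Ccl6 had 1.71 FPKM in the WT and 15.5 FPKM in the Brg1KO library (log2 ratio 2.61), and its neighbour Ccl9 had 1.001 and 6.005 FPKM (log2 ratio 1.81). Ccl5, which attracts T cells and macrophages, had 3.74 and 11.8 FPKM (log2 ratio 1.43). Ccl3 and Ccl4, made by activated microglia and macrophages, stayed within 2-fold, with log2 ratios of 0.57 (4.17 and 6.70 FPKM) and 0.56 (2.72 and 4.50 FPKM). So 3 of the 5 genes were 2-fold higher, and the summed level of the 5 went from 13.3 to 44.5 FPKM.

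Among the CXC ligands, Cxcl1, a neutrophil attractant that acts through Cxcr2, had 9.66 FPKM in the WT and 42.3 FPKM in the Brg1KO library (log2 ratio 2.02). Cxcl2, its close relative, had 0.0512 and 1.55 FPKM (log2 ratio 1.28) and was low in both. Cxcl5, another Cxcr2 ligand in the same stretch (chr5:90759299-90905938), had 6.997 and 8.01 FPKM (log2 ratio 0.17). Thus Cxcl1 and Cxcl5 had similar levels in the WT library and unlike levels in the Brg1KO library. Cxcl3 and Cxcl15, which lie between them, did not exceed 0.0284 FPKM.

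Cxcl10, the interferon-induced attractant of T cells, was the most abundant ligand in the WT library, with 14.3 FPKM, and had 33.5 FPKM in the Brg1KO library (log2 ratio 1.17). Its neighbours Cxcl9 and Cxcl11 share its receptor Cxcr3 and stayed under 1 FPKM in both. Cxcl9 had 0.269 and 0.725 FPKM and Cxcl11 had 0.292 and 0.609 FPKM. Cxcl16, a membrane-bound ligand of Cxcr6, had 4.69 and 10.9 FPKM (log2 ratio 1.07) and lay just above 2-fold. Cxcl14, a ligand made in many tissues without inflammation, had 8.20 and 15.3 FPKM (log2 ratio 0.83).

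Ccl19, which with Ccl21 guides lymphocytes and dendritic cells through Ccr7, had the largest log2 ratio of all members, 3.03, with 1.92 FPKM in the WT and 23.0 FPKM in the Brg1KO library. Its second record on a scaffold is listed at 0 in both. Every record of Ccl21b and Ccl21c was listed at 0, and Ccl21a did not exceed 0.0231 FPKM. These genes and Ccl27b have near-identical copies among which reads can be split or lost, so their values, and those of Ccl19 and Ccl27a, are uncertain. Ccl27a, a ligand of Ccr10, had 8.59 and 12.9 FPKM (log2 ratio 0.53). Ccl25, the ligand of Ccr9, had 1.69 and 2.30 FPKM (log2 ratio 0.30).

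Few of the receptors outside the axis were expressed. Ccr1, which reads Ccl3, Ccl5, Ccl6 and Ccl9, had 0.772 FPKM in the WT and 3.89 FPKM in the Brg1KO library (log2 ratio 1.47). Ccr2, the receptor of Ccl2 and Ccl12, had 0.884 and 1.49 FPKM (log2 ratio 0.40). Ccr1 was thus 2-fold higher, while Ccr2 was low in both libraries beside its ligands. Both lie near Ccr9, Cxcr6 and Ccr3 on chromosome 9, and these were under 0.4 FPKM.

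Several ligands were present with little of their main receptor. Cxcr2, the receptor of Cxcl1, had 0.812 and 0.898 FPKM. Cxcr3, the receptor of Cxcl10, had 0.141 and 0.303 FPKM, Ccr7, that of Ccl19, had 0.0591 and 0.161 FPKM, and Cxcr6, that of Cxcl16, had 0.251 and 0.374 FPKM. In each of these pairs the ligand was at a higher level than the receptor in both libraries, whereas Cxcr4 was above Cxcl12 in the WT library. Other pairs did not all have the ligand higher. Cxcr2 was above Cxcl2 (0.0512 FPKM) in the WT library, with both under 1 FPKM.

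**Figure D3:**
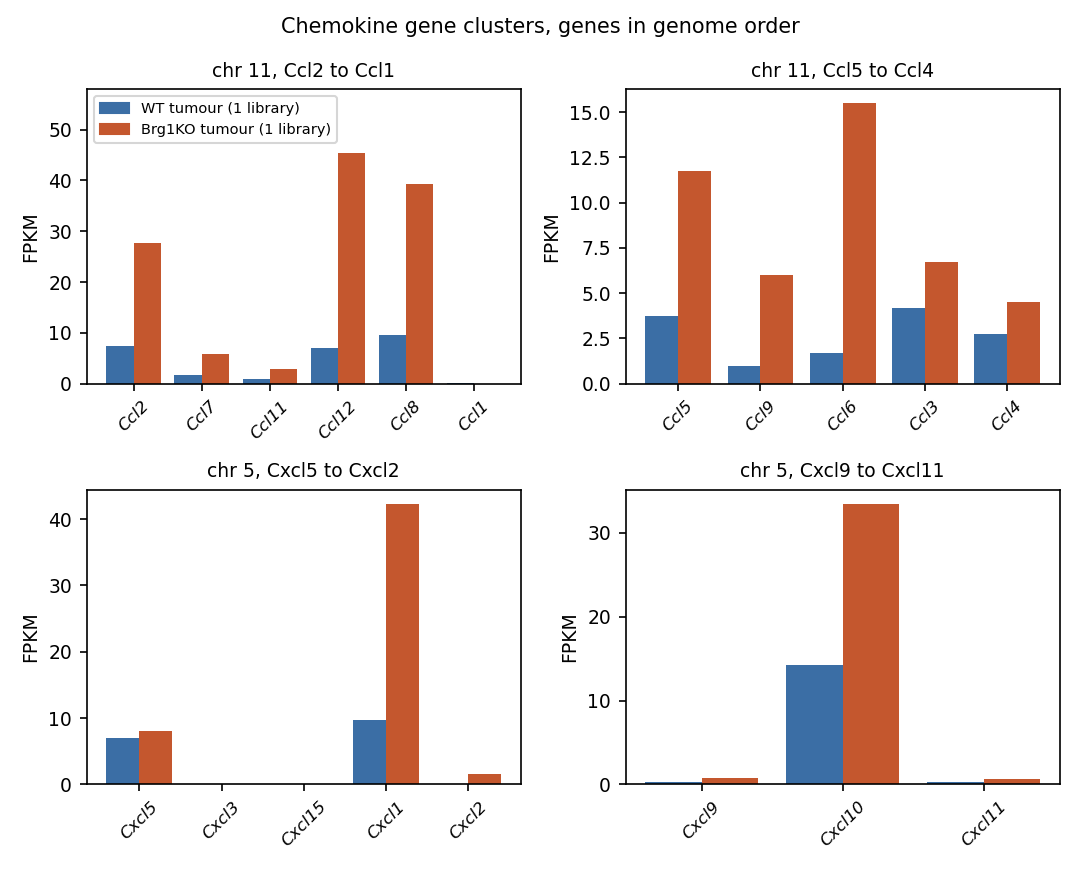
FPKM of chemokine genes in genome order within 4 clusters, in the WT tumour (blue) and the Brg1KO tumour (orange), 1 library each, each panel with its own axis from 0. Neighbouring genes differ in level, as Cxcl1 (9.66 and 42.3 FPKM) and Cxcl5 (6.997 and 8.01 FPKM) do.

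The other 38 records, of 29 further genes and the scaffold copy of Ccl19, stayed under 1 FPKM in both libraries. Of these 15 were listed at 0 in both, and the other 23 reached at most 0.988 FPKM. That value belonged to Ccl17, which attracts T cells through Ccr4, in the Brg1KO library (0.0824 FPKM in the WT). Cxcl13, which attracts B cells through Cxcr5, had 0.0312 and 0.751 FPKM. Of the 23 records 16 were higher and 7 lower in the Brg1KO library, with no fold given at these levels. They were Ccl1, Ccl20, Ccl22, Ccl24, Ccl28, Cxcl3, Cxcl9, Cxcl11, Cxcl13, Cxcl17, Ccl17 and 1 record of Ccl21a among the ligands, and Ccr3, Ccr6 to Ccr10, Cxcr1 to Cxcr3, Cxcr5 and Cxcr6 among the receptors. Ccl26, Ccl27b, Cxcl15 and Ccr4 were listed at 0.

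Markers of the cells that make or follow these ligands also differed between the libraries. Of 12 microglia and macrophage markers 8 were 2-fold higher in the Brg1KO library and 0 lower, beside 16.1% and 8.67% of all expressed records. The sum of the 12 markers went from 389.7 to 819.6 FPKM, with no gene at 0. Csf1r, the growth factor receptor of these cells, had 10.4 and 36.7 FPKM. Mrc1, a mannose receptor of macrophages at brain borders, had 0.966 and 10.4 FPKM. Mrc1 and Itgam (0.605 FPKM in the WT library) were expressed only through the Brg1KO library, so the filter fixed their direction. Of 8 astrocyte and Bergmann glia markers all 8 were higher, and their sum went from 416.6 to 2400.2 FPKM. Gfap had 83.5 and 628.8 FPKM. All 6 Purkinje cell markers (7.41 and 554.2 FPKM in sum) and all 7 oligodendrocyte markers (60.4 and 681.4 FPKM) were 2-fold higher as well. So were 5 of 6 markers of mature granule neurons (117.0 and 492.5 FPKM). Of these, Pcp2, Rgs8, Mag, Mobp, Mog, Cbln3 and Grin2c were expressed only through the Brg1KO library, so the filter fixed their direction.

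Of 9 T and NK cell markers only Cd4 was expressed (1.43 and 1.78 FPKM), the list summed to 2.31 and 3.92 FPKM, and Klrb1c was at 0 in both. Of 5 B cell markers only Cd79a was expressed, with sums of 1.30 and 0.68 FPKM, and Pax5 was at 0 in the WT library. Of 7 neutrophil markers in the files 4 were expressed and 2 were higher, beside 16.1% of all expressed records. These were S100a8 (21.8 and 119.1 FPKM) and S100a9 (4.49 and 21.95 FPKM). The sum went from 29.2 to 145.1 FPKM. The granule genes of neutrophils were low, with Elane at 0 in both, Ltf at 0 in the WT library and Mpo at 0.201 and 0.0557 FPKM. Camp had 1.04 and 1.47 FPKM and Csf3r had 1.75 and 2.45 FPKM, both within 2-fold. The part of each cell type in the chemokine values was not tested.

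**Figure D4:**
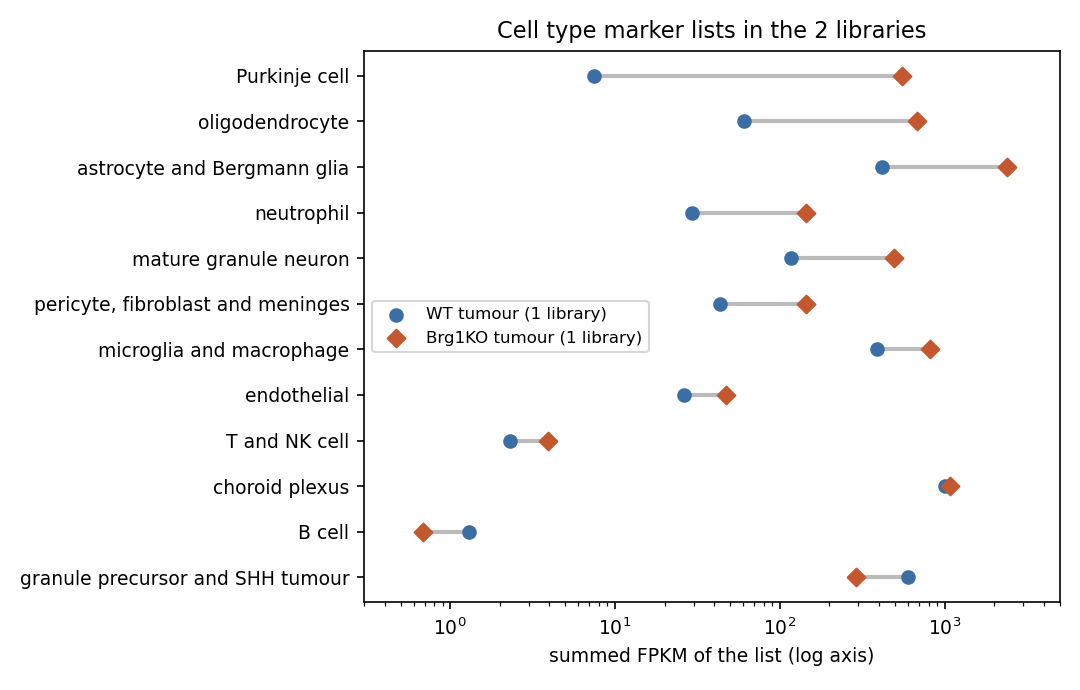
Summed FPKM of the marker list of each cell type, on a log axis, in the WT tumour (circles) and the Brg1KO tumour (diamonds), 1 library each. The granule precursor and B cell lists are lower in the Brg1KO library, choroid plexus is near level (1008.6 and 1083.5 FPKM), and the other lists are higher.

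Signals that switch on inflammatory chemokines were followed on a list of their own. Of 23 expressed genes among 27 cytokines, sensors and transcription factors 9 were 2-fold higher and 0 lower, beside 16.1% and 8.67% of all expressed records. The median log2 ratio was 0.70 for the list and 0.09 for all expressed records. The filter fixed the direction of Tnf, Il1b and Nfkb2, which were expressed only through the Brg1KO library. Irf7, a transcription factor of the interferon response, had 4.34 and 18.6 FPKM. Nfkbia, an inhibitor and target of NF-kappa-B, had 11.8 and 33.98 FPKM, and the sensor Tlr2 had 3.97 and 12.8 FPKM. The NF-kappa-B subunit genes Nfkb1 (4.65 and 4.85 FPKM) and Rela (17.1 and 11.3 FPKM) stayed within 2-fold. The cytokine genes Tnf (0.613 and 1.25 FPKM) and Il1b (0.808 and 1.93 FPKM) were low, and Ifng and Ifnb1 were listed at 0 in the WT library and stayed at or under 0.0503 FPKM in the Brg1KO library.

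Chemokine system genes outside the symbols used here were also followed, 11 in all. Of the 6 expressed ones 5 were 2-fold higher, beside 16.1% of all expressed records. Ccrl2, Cx3cr1 and Cmklr1 (0.895 and 2.80 FPKM) were expressed only through the Brg1KO library, so the filter fixed their direction. Cx3cl1, the neuronal ligand that microglia read through Cx3cr1, had 2.29 and 5.77 FPKM, and Cx3cr1 had 0.703 and 3.01 FPKM. Ccrl2, an atypical receptor, had 0.607 and 3.04 FPKM. Darc (now Ackr1), an atypical receptor of erythrocytes and venules, had 102.4 and 295.5 FPKM. In GENCODE M21 25.7% of its exon bases are also exons of Cadm3 on the same strand. Cadm3, a neuronal adhesion gene, had 27.8 and 128.1 FPKM, so the Darc values are uncertain.

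Genes that carry the receptor signal into the cell were followed as well. Of 29 expressed members of a list of 33 G protein, arrestin, kinase and motility genes 5 were 2-fold higher and 0 lower (median log2 ratio 0.51), and the share of higher ones is near the 16.1% of all expressed records. Gnai1, an inhibitory G protein subunit gene, had 7.203 and 26.6 FPKM, whereas Gnai2, the more abundant one, had 121.2 and 72.02 FPKM and stayed within 2-fold. The arrestin gene Arrb1 had 5.64 and 22.7 FPKM and its relative Arrb2 had 43.96 and 32.9 FPKM. Elmo1, an activator of Rac in motile cells, had 11.6 and 33.9 FPKM. Rgs1, which dampens the receptors in leukocytes, had 1.05 and 5.57 FPKM. Dock2, Pik3cg, Pik3r5 and Ptk2b of this list were expressed only through the Brg1KO library, and all stayed within 2-fold.

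Exons of a few expressed members overlap those of genes on the opposite strand in GENCODE M21, and no source used here says whether the counting used strand. The shared part was 18.3% of the Cxcl16 exon bases with Zmynd15 (0.145 and 0.414 FPKM) and 5.9% of those of Cxcl10 with Art3 (4.24 and 4.05 FPKM). For Ccl25 it was 2.7% with Elavl1 (31.5 and 16.3 FPKM) and for Ccl27a 0.3% with Il11ra1. All 25 expressed members had the status OK in both libraries. The deposited lower and upper bounds were not used as an error, since in many cases they did not enclose the FPKM value. The value lay inside them for 12 of the 25 in the WT and 6 in the Brg1KO library, and for Cxcr4 in the WT library they were 105.9 and 113.7 FPKM. The bounds of the libraries did not overlap for 21 of the 25 members (84.0%), beside 77.7% of all expressed records.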

How the data were processed

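RNA sequencing values of 2 libraries were used, 1 per genotype. Per the file headers, the authors deposited FPKM per gene with a lower and an upper bound in FPKM and a status. The submitters' processing notes name Cuffdiff 2.1.1 and mm10, with no role for either. The aligner, annotation, filters, strand setting and the making of the bounds are stated in no source used here. No read counts are in the files. Among 650 records above 0 and under 0.05 FPKM in both libraries, the fullest log2 bin of ratios held 7.69%, so no whole reads were recovered and the depth is unknown.

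The members, the gene lists and the rule for named genes were chosen with earlier results of these data known. Expressed members were named, except where a result is not reported here. From each list up to 4 genes with the largest 2-fold difference were eligible, or the 2 most abundant, and other list genes were named after their values were seen. Start positions were raised by 1, so coordinates count from 1 on mm10. Clusters are members less than 0.5 Mb apart. Older symbols were matched through RefSeq synonyms. Log2 ratios took a pseudocount of 1 FPKM. The ratio and the 2-fold call were tested on simulated data with 4-fold differences in the more abundant records. That test does not cover low members or those near 2-fold. Alternatives were other pseudocounts, scalings, minimum levels, thresholds and the bound midpoints. Tables were computed with pandas 2.3.3 and numpy 2.4.6 under Python 3.11.15, and plots drawn with matplotlib 3.10.9.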

Additional observations from a re-analysis of the deposited data

How the results depend on the processing

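No paired analysis was possible because there is 1 library per genotype. Cxcr4 stayed 2-fold lower (log2 ratio -3.74 to -3.44) and Cxcl12 2-fold higher (2.34 to 2.59) under the 6 alternative scalings, pseudocounts and bound midpoints. Cxcr7 passed 2-fold with a pseudocount of 0.1 (1.09) or 0.5 FPKM (1.03) and with both libraries scaled to an equal FPKM total (1.11). The number of higher members was 13 with 1 FPKM required in the WT library, beside 11.9% of all records so filtered. It was 18 at a 1.5-fold threshold, beside 28.1% of all expressed records, and 5 at a 4-fold threshold, beside 4.17%. All other settings lay between 13 and 18, and 1 member was lower in every setting. The median log2 ratio of the members was 1.63 and 1.48 with pseudocounts of 0.1 and 0.5 FPKM, 1.03 with a minimum of 0.5 FPKM, and 0.13 with no minimum, where 38 records under 1 FPKM enter. The 22 members outside the axis kept their side of the threshold in 127 of 132 values. Ccl11 passed it in 3 settings (1.09, 1.20 and 1.47), Cxcl16 fell under it after centring on the median (0.98) and from the bound midpoints (0.96), and Cxcl5 changed sign from the midpoints (-0.0382). The requirement of 1 FPKM in the WT library was chosen after seeing the data. Unknown depth leaves the precision of members near or under 1 FPKM, such as Cxcl2 and Ccr2, unmeasured.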
